A study of Mus musculus with 19 samples.

Results

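The genes described here are 10 mouse genes for enzymes that make or break down amino acids: Tdh, Gcat, Gldc, Phgdh, Psat1, Psph, Aldh18a1, Pycr1, Bcat1 and Asns. They were chosen by name for their place in threonine, glycine, serine, proline, branched-chain and asparagine metabolism, and all 10 were found among the 22756 gene entries of each table. RNA was sequenced from 19 libraries of a mouse embryonic stem (ES) cell line whose Rex1 (Zfp42) locus, active in naive ES cells, drives a destabilised green fluorescent protein (GFP). The study asked whether AICAR, a nucleoside that cells turn into an AMP mimic and that activates the energy sensor AMPK, returns differentiating cells to the naive state.

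All groups share the Rex1 GFPd2 reporter. One library is from undifferentiated cells, labelled as kept in LIF with inhibitors of MEK and GSK3 (LIF+2i). One is from cells after 2 days in differentiation medium, and 1 from day-2 cells that lacked both GFP and SSEA1, a carbohydrate antigen on the surface of naive cells (double-negative day-2 cells). The double-negative day-2 cells were cultured further in differentiation medium to day 15, without AICAR (1 library) or with AICAR for 15 days by the labels. With AICAR there are 1 unfractionated library, 1 GFP-negative library and 3 GFP-positive libraries. GFP-positive cells were then expanded in maintenance medium with LIF+2i, as 8 lines from picked colonies (colony lines) and 2 lines from sorted cells (sorted lines). Titles and sorting notes disagree for the AICAR fractions and for the day-2 library without a sort in its title, and the titles were followed. The labels do not say whether libraries of a group are separate cultures, so p-values measure the spread between these libraries, which may be technical. The maintenance medium and the differentiation medium have different bases and sera. The undifferentiated library and the 10 lines carry the LIF+2i label and the other 8 libraries do not, so medium and cell state cannot be told apart in any comparison between these sets.

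Mouse ES cells are known for an unusual dependence on threonine. Threonine dehydrogenase (Tdh) oxidises threonine in the mitochondrion, Gcat splits the product into glycine and acetyl-CoA, and the glycine cleavage system, whose decarboxylase is Gldc, passes the one-carbon unit of glycine to folate. Serine is made from a glycolytic intermediate by Phgdh, Psat1 and Psph in that order, proline is made from glutamate by Aldh18a1 and a reductase such as Pycr1, Bcat1 moves the amino group of leucine, isoleucine and valine in the cytosol, and Asns makes asparagine from aspartate and glutamine.

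Each library held between 5771671 and 14233421 reads in genes. Levels are given as CPM, the reads of a gene scaled to all of these reads, which compares 1 gene between libraries. AICAR GFP-positive replicates 1 and 2 come from a second sequencing project, by the file headers, and replicate 3 from the first, with the other 16 libraries. The summed level of 6 endoderm markers (Sox17, Gata4, Gata6, Afp, Cubn, Amn) was 919 CPM in AICAR GFP-positive replicate 3 against 128 and 126 CPM in replicates 1 and 2 and 1.63 to 13.3 CPM in the colony lines. None of the 6 was at 0 in the 3 AICAR GFP-positive libraries, and results that change without replicate 3 are given both ways. Without replicate 3, the GFP-positive libraries are all from the second project and the libraries compared with them from the first. Project and group then cannot be told apart. The labelled identity was checked against marker lists. The 7 naive markers were Zfp42, Nanog, Esrrb, Tfcp2l1, Klf4, Prdm14 and Tbx3. Zfp42 is the locus of the GFP reporter, so its level is not independent of sorting by GFP. In AICAR GFP-positive cells Zfp42 was 587 ± 111 against 435 CPM in undifferentiated cells and Klf4 312 ± 25.8 against 227. Nanog was 242 ± 31.2 against 546 CPM and Tfcp2l1 59.8 ± 14.5 against 105. Together the 7 summed to 2040 CPM in undifferentiated cells and 1910 to 2140 CPM in colony lines. Their sum was 1510 to 2020 CPM in AICAR GFP-positive cells, against 103 CPM in double-negative day-2 cells. Markers of the epiblast after implantation (Otx2, Fgf5, Pou3f1) went the other way in AICAR GFP-positive cells, where they summed to 126, 161 and 126 CPM in replicates 1 to 3, against 2.94 CPM in undifferentiated cells, 1.97 to 4.04 in colony lines and 223 in double-negative day-2 cells. Against those day-2 cells the markers did not move together. Otx2 was higher in AICAR GFP-positive cells (110 ± 11.5 against 43.5 CPM), and Fgf5 (12.7 ± 1 against 42.4) and Pou3f1 (15.6 ± 10.1 against 137) were lower. At day 15 without AICAR the naive markers summed to 240 CPM, of which Klf4 was 155 and Tbx3 69.6 and the other 5 were at 0.13 to 5.45 CPM each, beside 38900 CPM for 7 mesenchyme and smooth muscle markers. The same mesenchyme list summed to 10000 CPM in the unfractionated AICAR library, 586 CPM in the GFP-negative library and 154 CPM or less in the GFP-positive libraries. Each library is a bulk sample, in which fewer cells of a type and less RNA per cell cannot be told apart.

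Tdh, the threonine dehydrogenase, had the widest range of the 10 genes. It stood at 820 CPM in the undifferentiated library, 111 at day 2, 96.5 in double-negative day-2 cells and 6.74 at day 15 without AICAR, where 52 reads were counted. With AICAR it was 388 CPM in the unfractionated library, 266 in the GFP-negative library and 958, 737 and 572 in GFP-positive replicates 1, 2 and 3. Colony lines ran from 833 to 929 CPM with a median of 882, and the sorted lines were at 947 and 934. Thus Tdh was low in the 2 day-2 libraries, lowest at day 15 without AICAR, and in the AICAR GFP-positive libraries its range included the undifferentiated level. Gcat, the second enzyme of the threonine route, is counted in a joined entry with the overlapping gene Galr3, so reads of the 2 genes cannot be separated. That entry was at 118 CPM in the undifferentiated library, 89.7 at day 2, 77.9 in double-negative day-2 cells, 26.6 at day 15, 35.4 in unfractionated and 37.8 in GFP-negative AICAR cells. It was 60.9, 63.5 and 65.7 CPM in GFP-positive replicates 1 to 3, 69.6 to 117 (median 98.9) in colony lines and 98.2 and 97.3 in sorted lines. All GFP-positive libraries lay above the other day-15 libraries and below every line.

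Gldc, the glycine decarboxylase, had its highest group level at day 2 and its lowest at day 15 without AICAR, with no AICAR library near the latter. Its level was 158 CPM in the undifferentiated library, 284 at day 2, 234 in double-negative day-2 cells and 38.9 at day 15 without AICAR. The unfractionated and GFP-negative AICAR libraries had 174 and 206 CPM, and GFP-positive replicates 1, 2 and 3 had 164, 221 and 343. In the lines it was 197 to 371 CPM (median 231) and 235 and 233. The GFP-positive libraries overlapped the lines, and their replicate 3, the library with the high endoderm markers, was the highest of the 3. The part of those markers in its Gldc level was not tested.

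**Figure D1:**
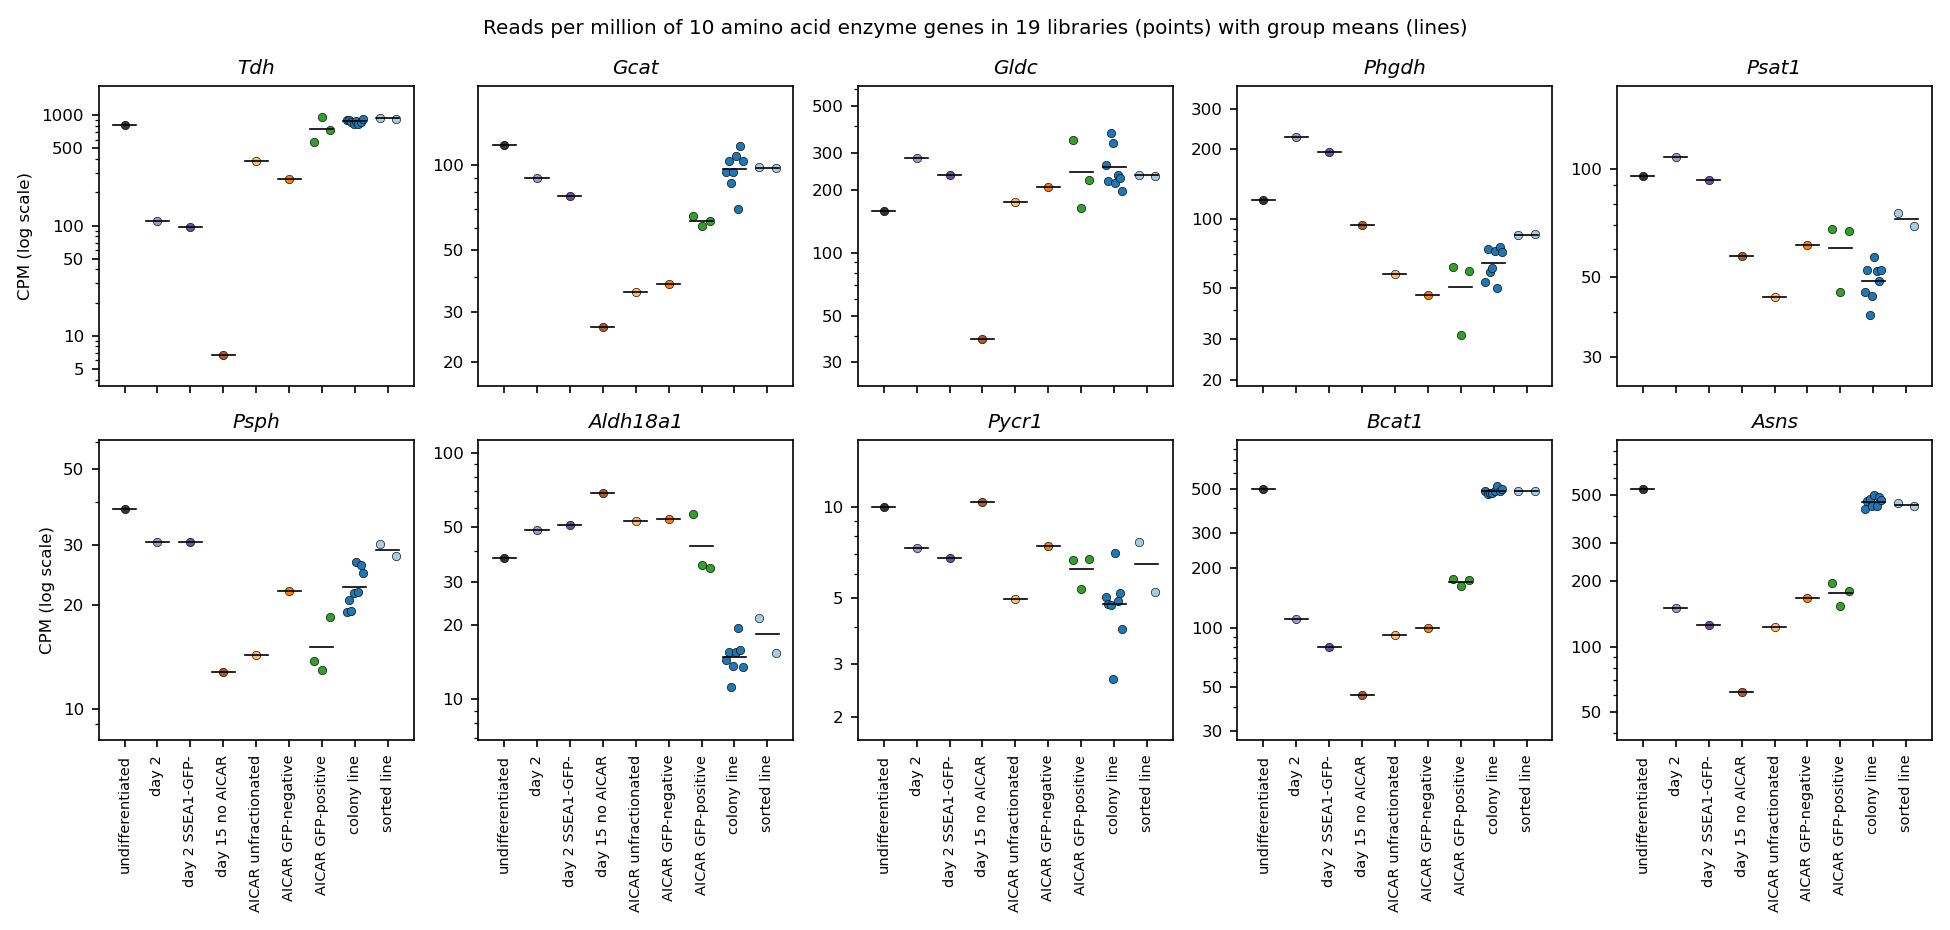
CPM (log axis) of each of the 10 genes in all 19 libraries. Each point is 1 library and each line the mean of its group. Tdh is lowest at day 15 without AICAR (6.74 CPM), Bcat1 and Asns are above 400 CPM only in undifferentiated cells and lines, and Aldh18a1 is below 22 CPM only in the lines.

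The 3 enzymes of serine synthesis had ratios of highest to lowest group level of 4.85 (Phgdh), 2.45 (Psat1) and 2.99 (Psph), against 139 for Tdh, 7.3 for Gldc and 4.44 for Gcat. Phgdh, which commits the glycolytic intermediate to serine, was 120 CPM in the undifferentiated library, 227 at day 2, 194 in double-negative day-2 cells and 93.7 at day 15 without AICAR. It was 57.5 CPM in unfractionated and 46.8 in GFP-negative AICAR cells, 31.1, 59 and 61.8 in GFP-positive replicates 1 to 3, 49.9 to 75.6 (median 66.2) in colony lines and 84.6 and 85.8 in sorted lines. Every library with AICAR treatment behind it was below the day-15 library without AICAR and below the undifferentiated library. Psat1, the aminotransferase of the pathway, was 95.4 CPM before differentiation, 108 at day 2, 93.2 in the double-negative fraction and 57.2 by day 15. Its level was 44.1 CPM in unfractionated and 61.3 in GFP-negative AICAR cells, 45.3, 67.2 and 68.1 in GFP-positive replicates 1 to 3, 39.2 to 56.7 (median 50.4) in colony lines and 75.5 and 69.5 in sorted lines. Both sorted lines were above all colony lines and all GFP-positive libraries, and below undifferentiated cells. Psph, the phosphatase that releases serine, was 38.3 CPM in undifferentiated cells, 30.6 in both day-2 libraries and 12.8 at day 15, and 14.3 and 22 in unfractionated and GFP-negative AICAR cells. GFP-positive replicates 1 to 3 had 13, 18.5 and 13.8 CPM, colony lines 19.1 to 26.8 (median 21.8) and sorted lines 30.2 and 27.8. Its GFP-positive libraries were below every line, and every line was below the undifferentiated library.

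Aldh18a1, the first enzyme of proline synthesis, ran nearly opposite to Bcat1 and Asns. It was highest at day 15 without AICAR (68.6 CPM), with 37.6 CPM in the undifferentiated library, 48.5 at day 2, 51.1 in double-negative day-2 cells, 53.1 in unfractionated and 54.2 in GFP-negative AICAR cells. GFP-positive replicates 1 to 3 had 35.1, 34.1 and 56.3 CPM. Colony lines had 11.2 to 19.4 CPM (median 15) and sorted lines 21.3 and 15.4. All 10 lines lay below each of the other 9 libraries, and GFP-positive replicate 3 was again the high one of its group, with its endoderm markers. Pycr1, a reductase that completes proline, had few reads throughout (68 in undifferentiated cells): 9.98 CPM in the undifferentiated library, 7.32 at day 2, 6.75 in double-negative day-2 cells and 10.4 at day 15. It was 4.94 and 7.45 CPM in unfractionated and GFP-negative AICAR cells, 5.33, 6.74 and 6.66 in GFP-positive replicates 1 to 3, 2.69 to 7.05 (median 4.82) in colony lines and 7.68 and 5.24 in sorted lines. Fewer than 100 reads stood behind Pycr1 in each library of the single-library comparisons, and it passed the test in none of the 8 replicated ones.

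Bcat1 and Asns, which act on different amino acids, had nearly the same profile. Bcat1, the cytosolic branched-chain aminotransferase, was 503 CPM in the undifferentiated library, 111 at day 2, 79.6 in double-negative day-2 cells, 45.8 at day 15, 92.2 in unfractionated and 100 in GFP-negative AICAR cells. It was 162, 173 and 176 CPM in GFP-positive replicates 1 to 3, 472 to 520 (median 489) in colony lines and 490 and 491 in sorted lines. Asns, the asparagine synthetase, was 537 CPM before differentiation, 151 at day 2, 126 in the double-negative fraction and 61.7 by day 15, and 123 and 168 in unfractionated and GFP-negative AICAR cells. Asns was 154, 180 and 197 CPM in GFP-positive replicates 1 to 3, 431 to 502 (median 471) in colony lines and 461 and 444 in sorted lines. Both genes were high in the 11 libraries labelled LIF+2i and low in the other 8, with no overlap. As a share of the undifferentiated level, AICAR GFP-positive cells had 33.9% ± 1.43 (SD, n = 3) of Bcat1 and 33% ± 3.95 of Asns, but 92.1% ± 23.6 of Tdh. The colony lines had 97.1% ± 3.14 of Bcat1, 87% ± 4.54 of Asns and 107% ± 4.07 of Tdh (SD, n = 8).

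**Figure D2:**
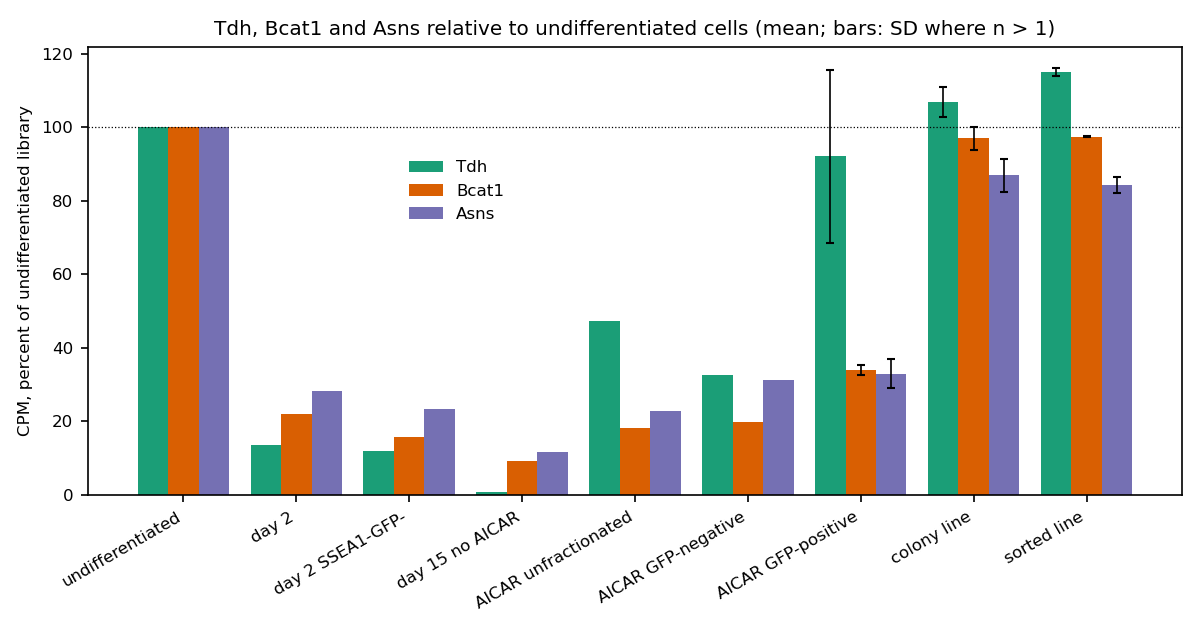
Mean CPM of Tdh, Bcat1 and Asns as a percent of the undifferentiated library (linear axis from 0, SD shown for groups of 3, 8 and 2 libraries, dotted line at 100%). In AICAR GFP-positive cells Tdh is at 92.1% and Bcat1 and Asns are at 33.9% and 33%, while in colony lines all 3 are at 87% or more.

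Asns is a textbook target of ATF4, a transcription factor made when amino acids run short, which binds composite sites of the form TGATGNAA. The 250 bases before the start of the 2 members whose promoter window held these letters are shown so that the element can be seen in place. They come from RefSeq on build GRCm38.p6, on the minus strand in both cases, while the submitters' processing notes name mm9. Capitals mark the match. Asns lies at chr6:7693210-7693459 and Pycr1 at chr11:120643749-120643998.
Asns: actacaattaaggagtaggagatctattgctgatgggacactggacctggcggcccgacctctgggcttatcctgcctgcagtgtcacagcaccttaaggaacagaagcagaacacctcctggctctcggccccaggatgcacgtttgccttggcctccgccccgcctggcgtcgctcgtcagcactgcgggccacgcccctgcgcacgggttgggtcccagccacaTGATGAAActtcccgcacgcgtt
Pycr1: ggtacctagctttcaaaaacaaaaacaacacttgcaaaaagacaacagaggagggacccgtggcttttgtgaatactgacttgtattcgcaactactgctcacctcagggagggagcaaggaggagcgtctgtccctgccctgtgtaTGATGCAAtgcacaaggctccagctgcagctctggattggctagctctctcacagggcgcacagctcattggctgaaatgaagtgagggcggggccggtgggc

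The match began 23 bases before the start of Asns and 103 bases before that of Pycr1, on the strand of the gene in both. On either strand, 2 of the 9 members with a window from 250 bases before to 50 after the start held the 8 letters, against 3.97% of 32851 windows of that length. The first share counts members and the second counts windows, and Bcat1 and Psat1 have more than 1 window each. Bcat1, whose profile was nearly that of Asns, had no match in its windows, which says only that these letters are not there. Atf4 itself, a gene named here after its values were seen, had RNA at 148 CPM in the undifferentiated library, 169 at day 15 without AICAR, 175 ± 44 in AICAR GFP-positive cells and 94.2 ± 37.6 in colony lines. Asns was higher in colony lines than in AICAR GFP-positive cells, and Atf4 RNA was lower in the lines by a log2 fold change of -0.74 ± 0.24 (adjusted p = 0.0149). Only RNA was measured, so the level and activity of the ATF4 protein are not known. The part of ATF4 in the Asns level was not tested.

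The first days of differentiation were described from single libraries, with no replicate check and no p-value. Ratios are those of CPM scaled to all reads in genes, and a gene is counted past 2-fold if it has at least 100 reads in 1 of the 2 libraries. At day 2, Tdh was 7.35-fold, Bcat1 4.52-fold and Asns 3.55-fold below the undifferentiated library. The other 7 genes stayed within 2-fold, with Phgdh 1.89-fold and Gldc 1.8-fold higher. Over the 8174 genes with that many reads, 7.6% lay more than 2-fold lower and 8.28% higher. The double-negative day-2 library gave the same 3 genes past 2-fold, with Tdh 8.47-fold, Bcat1 6.31-fold and Asns 4.26-fold below, where 7.9% of genes were lower and 8.91% higher. Between the 2 day-2 libraries no member differed by 2-fold (0.0257% of genes lower in the sorted library, 0.372% higher), and the largest ratio was 1.4 for Bcat1. Naive markers summed to 120 and 103 CPM in these libraries, against 2040 in undifferentiated cells. The 3 general pluripotency markers did not move together there: Pou5f1 was at 1430 and 1240 CPM against 1580, Sox2 at 98.1 and 68.2 against 327, and Utf1 at 459 and 417 against 132. Few partners were past 2-fold at day 2. In the glycine list 2 of 8 genes with enough reads were lower, Amt (44.5 against 103 CPM) and Dmgdh, a dehydrogenase of dimethylglycine (0.261 against 15 CPM), and none was higher. Dmgdh is counted in a joined entry with AW495222, here and below, so reads of the 2 cannot be separated. Of the transporters Slc38a2, a carrier of small neutral amino acids, was higher (328 against 124 CPM) and the cationic carrier Slc7a1 lower (12.4 against 36.1), out of 9.

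Day-15 cells without AICAR had 6 of the 10 genes more than 2-fold below undifferentiated cells: Tdh (117-fold), Bcat1 (10.9), Asns (8.67), Gcat (4.41), Gldc (4.03) and Psph (2.95). Of all 9790 genes, 18.9% were more than 2-fold lower and 31.8% higher, with a median log2 ratio of 0.20. Partners of these enzymes were lower in part. Of 9 glycine list genes with enough reads 4 were lower, including Shmt1, which interconverts serine and glycine (30.9 against 211 CPM), and Amt, the aminomethyltransferase of glycine cleavage (11.3 against 103), and 1 was higher, Sardh. In the list of amino acid transporters 3 of 9 were lower and 2 higher, with the cationic carrier Slc7a3 at 6.87 against 132 CPM. Of 14 ATF4 stress response genes with enough reads 7 were higher and 2 lower, with Vldlr at 95.7 against 2.5 CPM. That list is mixed, with Atf4 itself and the kinases Eif2ak3 and Eif2ak4 in it, and the part of ATF4 in these values was not tested. From the double-negative day-2 cells to day 15, 6 members were more than 2-fold lower: Tdh (13.8-fold), Gldc (5.99), Gcat (2.91), Psph (2.35), Phgdh (2.07) and Asns (2.03). Bcat1 was 1.73-fold lower there. Background shares were 18.6% lower and 29.7% higher.

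Some members were higher in the whole AICAR culture than without AICAR. Against day 15 without AICAR, the unfractionated library was 55.5-fold higher in Tdh, 4.46-fold in Gldc and 2.01-fold in Bcat1, with Asns just inside 2-fold at 1.99. No member with enough reads was past 2-fold lower, where 14.4% of genes were lower and 10.9% higher. The GFP-negative library was 38-fold higher in Tdh, 5.27-fold in Gldc, 2.72-fold in Asns and 2.18-fold in Bcat1, with background shares of 11.1% higher and 19.4% lower. Phgdh was at the threshold there, with 46.8 against 93.7 CPM. Mesenchyme and stratified epithelium markers were lower in the same 2 libraries (38900 against 10000 and 586 CPM, and 1140 against 13.4 and 4.16 CPM). General pluripotency markers were higher in the unfractionated and GFP-negative libraries. Pou5f1 was at 643 and 612 against 26.4 CPM, Sox2 at 303 and 275 against 14.8 and Utf1 at 206 and 271 against 5.7. The part of these marker lists in these ratios was not tested.

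The test of AICAR GFP-positive cells over the untreated day-15 library used edgeR's quasi-likelihood test. The lone day-15 library was assumed to vary like the GFP-positive ones, in this and the other tests with 1 library on a side. Of the 10 members 5 rose and 0 fell, beside 23.1% of 14857 genes higher and 23.2% lower. Tdh rose by a log2 fold change of 6.89 ± 0.52 (SE, adjusted p = 0.00263), Gldc by 2.71 ± 0.48 (adjusted p = 0.0119) and Bcat1 by 1.98 ± 0.17 (adjusted p = 0.00304). Asns rose by 1.60 ± 0.20 (adjusted p = 0.00558) and the Gcat entry by 1.33 ± 0.17 (adjusted p = 0.00569), and in all 5 every GFP-positive library was above the day-15 library. Phgdh, Psph, Aldh18a1 and Pycr1, which were not called, had no overlap either. The share of all genes without overlap between groups was not counted, in this or the later comparisons. The serine and proline enzymes did not pass, with Phgdh at -0.81 ± 0.39 and Aldh18a1 at -0.64 ± 0.31. Without replicate 3, both passed as lower (Phgdh -0.98, adjusted p = 0.0163, and Aldh18a1 -0.91, adjusted p = 0.00142). The 5 members that rose were called under all 8 alternatives run. Within the first sequencing project, where 1 library stands on each side and no test was run, the log2 ratios were 6.35 for Tdh, 3.13 for Gldc, 1.94 for Bcat1, 1.67 for Asns and 1.3 for Gcat.

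Partner lists were counted in the same comparison, where 23.1% of all genes were higher and 23.2% lower and the median log2 fold change was -0.03. In 5 of 7 lists more genes rose than fell, though the shares that rose in the branched-chain and transporter lists were not far above that of all genes. In the glycine list 5 of 10 tested genes rose and 1 fell (median 0.61), with Shmt1 at 154 ± 16.8 (SD, n = 3) against 30.9 CPM, Amt at 59.7 ± 8.67 against 11.3 and Gcsh, the lipoyl carrier protein of glycine cleavage, at 80 ± 11.6 against 29. Sardh, which makes glycine from sarcosine, fell to 0.177 ± 0.0869 from 27.6 CPM. With scaling by library totals the glycine count was 3 higher and 1 lower. Of 10 one-carbon genes 5 rose and 1 fell (median 0.41), with Mthfd1, a trifunctional folate enzyme, at 450 ± 58.5 against 88 CPM. Of 5 proline partners 2 rose and 1 fell, with Prodh, which oxidises proline, at 17.2 ± 2.53 against 4.54 CPM, and Oat, an aminotransferase of ornithine, at 73.4 ± 18 against 172. The branched-chain list had 5 of 15 higher and 1 lower (median 0.36), with the mitochondrial aminotransferase Bcat2 (a joined entry with 0610005C13Rik) at 133 ± 20.6 against 34.1 CPM. Glutamine, aspartate and arginine partners had 5 of 11 higher and 1 lower (median 0.60), with Got1, the cytosolic aspartate aminotransferase, at 168 ± 20.1 against 30.9 CPM. Transporters had 4 of 13 higher and 5 lower (median 0.03), and the ATF4 list 3 of 17 higher and 8 lower (median -0.77), with Cebpb at 2.71 ± 0.534 against 38.2 CPM. The mesenchyme markers fell in 7 of 7 and the naive markers rose in 7 of 7 in the same comparison, and their part in these counts was not tested.

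The GFP-positive cells were next compared with the GFP-negative cells of the AICAR culture. No member and no gene passed edgeR's test (0% of 13821 genes in either direction), although 3022 genes had an unadjusted p under 0.05. DESeq2 called 1204 genes and 3 members there. Tdh was 755 ± 194 against 266 CPM (log2 fold change 1.5 ± 0.35, adjusted p = 0.148), Bcat1 170 ± 7.19 against 100 (0.76 ± 0.14, adjusted p = 0.139) and Gcat 63.4 ± 2.43 against 37.8 (0.73 ± 0.16, adjusted p = 0.141). Each of these 3 was higher in 3 of 3 GFP-positive libraries, and Psph and Pycr1 were lower in 3 of 3. Asns did not differ beyond the spread (177 ± 21.2 against 168 CPM, 0.06 ± 0.17). Without replicate 3, 3953 genes were called and 4 members were among them: Tdh 1.66 (adjusted p = 0.000125), Bcat1 0.74 (adjusted p = 0.00465), Gcat 0.71 (adjusted p = 0.0151) and, lower, Aldh18a1 -0.66 (adjusted p = 0.0222). The endoderm markers summed to 871 CPM in the GFP-negative library, and only this sum was close to that of replicate 3. Single markers differed: Gata4 was 313 CPM in the GFP-negative library against 27.9 ± 38.1 in the GFP-positive ones, and Cubn 175 against 295 ± 334. Leaving out replicate 3 also sets GFP-positive libraries of the second project against a library of the first. The part of the markers and of the project in this dependence was not tested.

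Against the double-negative day-2 cells, from which the AICAR culture was started, Tdh rose by 2.91 ± 0.38 (adjusted p = 0.0287) and Bcat1 by 1.03 ± 0.14 (adjusted p = 0.0302), while Phgdh fell to 50.7 ± 17 from 194 CPM (-2.01 ± 0.36, adjusted p = 0.0436). For all 3 the GFP-positive libraries lay on 1 side of the day-2 library, as they did for members that were not called, such as Asns and Psat1. Of all genes 3.18% were higher and 2.6% lower. Within the first project the log2 ratios were 2.56 for Tdh, 1.14 for Bcat1 and -1.65 for Phgdh. Without replicate 2 no gene and no member was called there, with 2412 genes at an unadjusted p under 0.05. Without replicate 3 there were 6 members, with no count of all genes given here to read them against. With library totals Phgdh was at -1.94 (adjusted p = 0.0515).

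Against undifferentiated cells 4 members were lower in the GFP-positive cells and 0 higher, beside 2.62% of 13640 genes lower and 2.43% higher. Asns was lower by a log2 fold change of -1.78 ± 0.16 (adjusted p = 0.0268), Bcat1 by -1.74 ± 0.13 (adjusted p = 0.0226), Psph by -1.52 ± 0.26 (adjusted p = 0.0485) and Gcat by -1.07 ± 0.13 (adjusted p = 0.0416). For all 4 the 3 GFP-positive libraries were below the undifferentiated one, as they were for Phgdh, Psat1 and Pycr1, which were not called. Tdh was at -0.29 ± 0.30 (adjusted p = 0.548), with 1 of the 3 libraries above. In the same comparison Otx2 was 110 ± 11.5 against 2.35 CPM (adjusted p = 0.00929), Fgf5 12.7 ± 1 against 0.147 (adjusted p = 0.0248) and Pou3f1 15.6 ± 10.1 against 0.44 (adjusted p = 0.0698), and the part of these epiblast markers in the members' values was not tested. Scaling by library totals made 4.63% of genes higher and 1.66% lower, moved the median of all genes from 0.07 to 0.25 and left Psph uncalled (adjusted p = 0.0526). No member was called without replicate 1 (50 genes in all) or without replicate 2 (0 genes, 2518 at an unadjusted p under 0.05). Without replicate 3 there were 6, but the count of all genes in that setting is not given here, so this 6 has no background beside it. In the glycine list 1 of 9 tested genes was lower, Dmgdh (0.999 ± 0.695 against 15 CPM), and 0 of 15 branched-chain genes were called. The glutamine synthetase Glul was higher (208 ± 25.7 against 80.3 CPM, adjusted p = 0.0484), as the one call among its 11 tested partners. Within the first project the log2 ratios were -0.52 for Tdh, -1.52 for Bcat1, -1.45 for Asns, -1.46 for Psph and -0.84 for Gcat, with no test.

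**Figure D3:**
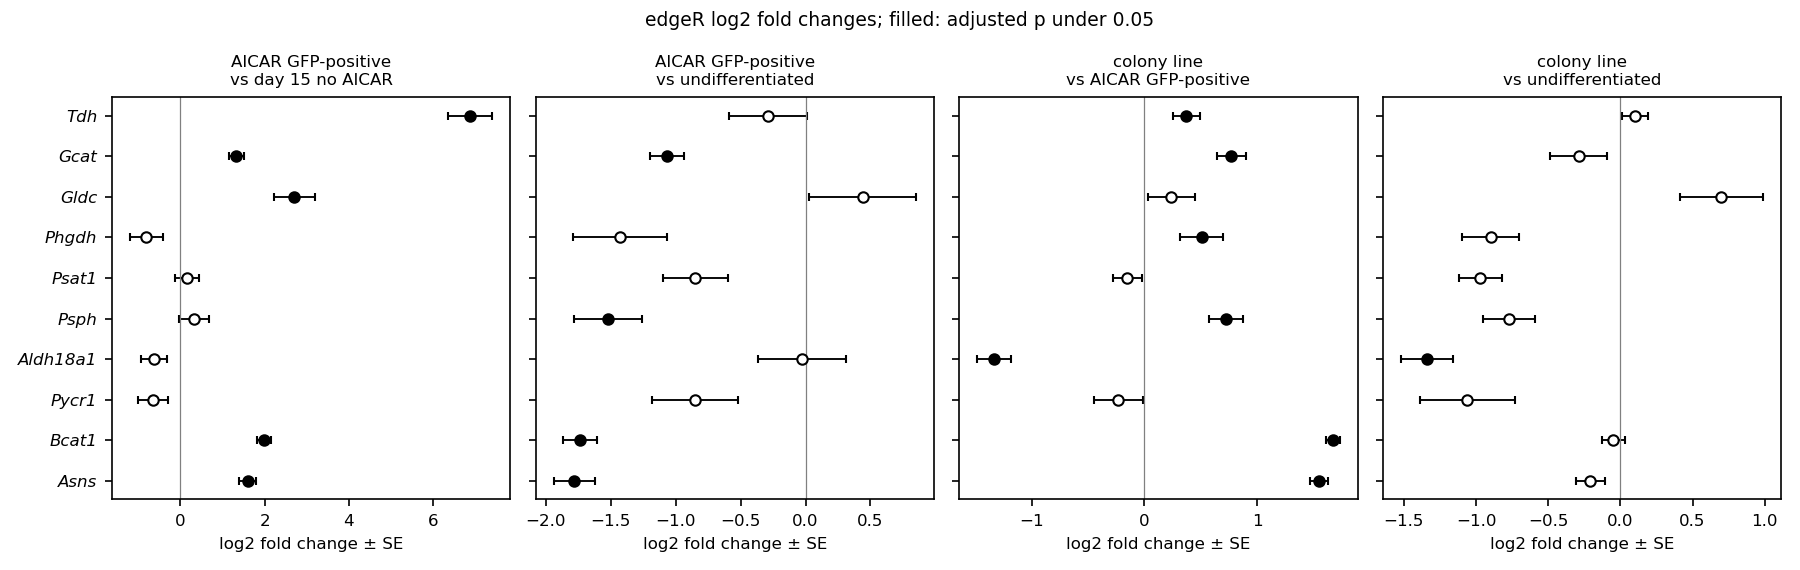
edgeR log2 fold changes with their SE for the 10 genes in 4 comparisons, each on its own axis. Filled points have an adjusted p under 0.05. Bcat1 and Asns are at -1.74 and -1.78 in AICAR GFP-positive against undifferentiated cells, and at 1.67 and 1.55 in colony lines against AICAR GFP-positive cells. Aldh18a1 is the one called member in colony lines against undifferentiated cells (-1.34).

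The colony lines, grown from GFP-positive colonies in LIF+2i, had Bcat1 and Asns about 3 times as high as the AICAR GFP-positive cells. Bcat1 rose from 170 ± 7.19 (n = 3) to 489 ± 15.8 CPM (SD, n = 8; log2 fold change 1.67 ± 0.06 SE, adjusted p = 3.29e-10) and Asns from 177 ± 21.2 to 467 ± 24.4 (1.55 ± 0.08, adjusted p = 1.19e-08). Gcat rose by 0.77 ± 0.13 (adjusted p = 0.000194), Psph by 0.72 ± 0.15 (adjusted p = 0.00081), Phgdh by 0.51 ± 0.19 (adjusted p = 0.0328) and Tdh by 0.37 ± 0.12 (adjusted p = 0.0175). Aldh18a1 fell from 41.8 ± 12.5 to 14.9 ± 2.36 CPM (-1.33 ± 0.15, adjusted p = 7.04e-06). Bcat1, Asns, Gcat, Psph and Aldh18a1 had no overlap between the groups, while Tdh and Phgdh overlapped. How many of all genes had no overlap was not counted. The tests took the 8 lines as independent, though some lines were more alike than others. So many genes differed in this comparison (27.6% of 12225 higher and 30.3% lower) that 6 higher and 1 lower of 10 is read against that background. Scaled by library totals, 19.2% were higher and 39.7% lower, the median of all genes moved from -0.03 to -0.18, and Tdh (0.22, adjusted p = 0.102) and Phgdh (0.35, adjusted p = 0.123) were no longer called. The endoderm markers were lower in the lines too, in 5 of 5 tested, as were the 3 epiblast markers (Otx2 at 2.03 ± 0.536 against 110 ± 11.5 CPM). The part of both marker lists in the members' values was not tested. Aldh18a1 was still called without replicate 3 (-1.08, adjusted p = 1.12e-05). Tdh was not called without it (0.19, adjusted p = 0.0816), and Gldc was (0.56, adjusted p = 0.0319). Within the first project, with replicate 3 as the lone GFP-positive library, Bcat1 was at 1.67, Asns at 1.45, Tdh at 0.82 (adjusted p = 5e-05) and Phgdh at 0.26 (adjusted p = 0.347).

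The sorted lines were compared with the same GFP-positive libraries. Bcat1 was at 491 against 170 CPM (1.69 ± 0.08, adjusted p = 0.000435), Asns at 453 against 177 (1.52 ± 0.11, adjusted p = 0.00108), Psph at 29 against 15.1 (1.1 ± 0.19, adjusted p = 0.00774), Phgdh at 85.2 against 50.7 (0.92 ± 0.27, adjusted p = 0.0392) and Gcat at 97.8 against 63.4 (0.79 ± 0.08, adjusted p = 0.00221). Aldh18a1 was lower, at 18.4 against 41.8 CPM (-1.02 ± 0.28, adjusted p = 0.0311). None of the 6 overlapped between the groups, and neither did Psat1, which was not called (0.44 ± 0.18, adjusted p = 0.104). The share of all genes without overlap was not counted. Tdh, at 940 against 755 CPM, overlapped and was not called (0.48 ± 0.21, adjusted p = 0.113). Background shares were 17.5% higher and 19.1% lower, and 11.6% and 26.4% with library totals, with a median of all genes of -0.22 in place of -0.05, and Phgdh was then not called (0.75, adjusted p = 0.0759). Leaving out either sorted line left 2 members called, Bcat1 and Asns both times. Colony and sorted lines share the GFP-positive libraries as their comparison group, so the 2 sets of values are not independent.

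Partners of the members in colony lines against GFP-positive cells were counted the same way, beside the 27.6% of all genes higher and 30.3% lower (19.2% and 39.7% with library totals). The glycine list had 6 of 8 tested genes higher and 1 lower (median 0.44, against -0.03 over all genes), or 4 and 1 with library totals. Dmgdh was at 12 ± 2.5 against 0.999 ± 0.695 CPM, Gcsh at 126 ± 16.2 against 80 ± 11.6 and Amt at 96.3 ± 9.72 against 59.7 ± 8.67. One-carbon partners had 6 of 10 higher and 2 lower (3 and 2 with library totals), with Tyms, the thymidylate synthase, at 264 ± 9.25 against 207 ± 37.5 CPM. Pycrl, a further proline reductase, rose to 19.5 ± 2.36 from 11.5 ± 2.42 CPM, as 1 of 2 higher among 5 proline partners. The glutamine, aspartate and arginine list had 7 of 10 higher and 2 lower under both scalings, with the glutamine synthetase Glul lower (95 ± 8.89 against 208 ± 25.7 CPM). Branched-chain breakdown had 5 of 15 higher and 3 lower (4 and 5 with library totals), with Mccc1 (a joined entry with A330050B17Rik) at 35.2 ± 3 against 27.2 ± 3.52 CPM. The list median was -0.06, and its shares were near those of all genes. Transporters had 1 of 11 higher and 2 lower.

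In the ATF4 list 2 of 14 tested genes rose and 7 fell in the same comparison, or 2 and 4 without replicate 3. Over all genes 30.3% fell, and 29.7% without replicate 3, so the latter count is near the share of all genes. Those that rose were Cth, which makes cysteine (56.5 ± 10.3 against 12.5 ± 8.65 CPM, log2 fold change 2.28 ± 0.30), and Eif2ak4 (GCN2), the kinase that senses uncharged tRNA (48.2 ± 3.93 against 29 ± 2.96). Ddit4, a stress-induced inhibitor of mTORC1, fell to 9.84 ± 3.04 from 35.5 ± 0.365 CPM. Asns rose in this comparison, and the part of ATF4 in these values was not tested.

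The lines were compared with each other and with undifferentiated ES cells. Between colony and sorted lines no member and no gene passed edgeR's test (0% higher and 0% lower of 11870, with 1092 genes at an unadjusted p under 0.05), and DESeq2 called 0 genes. Psat1 had the smallest unadjusted p of the members, at 48.9 ± 5.61 against 72.5 CPM (-0.58 ± 0.11, adjusted p = 0.52), with every colony line below both sorted lines. Against the undifferentiated library 4 genes of 12314 were called (0.00812% higher and 0.0244% lower), with 2385 at an unadjusted p under 0.05, and Aldh18a1 was one of the 3 lower. Aldh18a1 was 14.9 ± 2.36 against 37.6 CPM (-1.34 ± 0.18, adjusted p = 0.0406), lower in 8 of 8 lines. That call was lost with library totals (adjusted p = 0.0535) and without colony line 1, 3, 5, 6 or 10, with no member called in each of these 6 settings. DESeq2 called 387 genes and 4 members. The other serine and proline genes had the same direction in 8 of 8 lines without passing: Psat1 -0.97 ± 0.15 (adjusted p = 0.0616), Phgdh -0.90 ± 0.20 (adjusted p = 0.0964), Psph -0.77 ± 0.18 (adjusted p = 0.108) and Pycr1 -1.06 ± 0.33 (adjusted p = 0.15). This was not particular to them. All 8 lines were also below that library for Gcat and Asns, and above it for Tdh and Gldc. The share of all genes with all 8 lines on 1 side was not counted, and the 8 lines may not be independent, as some were more alike than others. Tdh (0.10 ± 0.09), Bcat1 (-0.05 ± 0.08) and Asns (-0.21 ± 0.10) had smaller differences, and Gldc was 0.70 ± 0.29 (adjusted p = 0.224). The undifferentiated library is a single one, so a deviation of that library and a difference of the lines cannot be told apart.

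**Figure D4:**
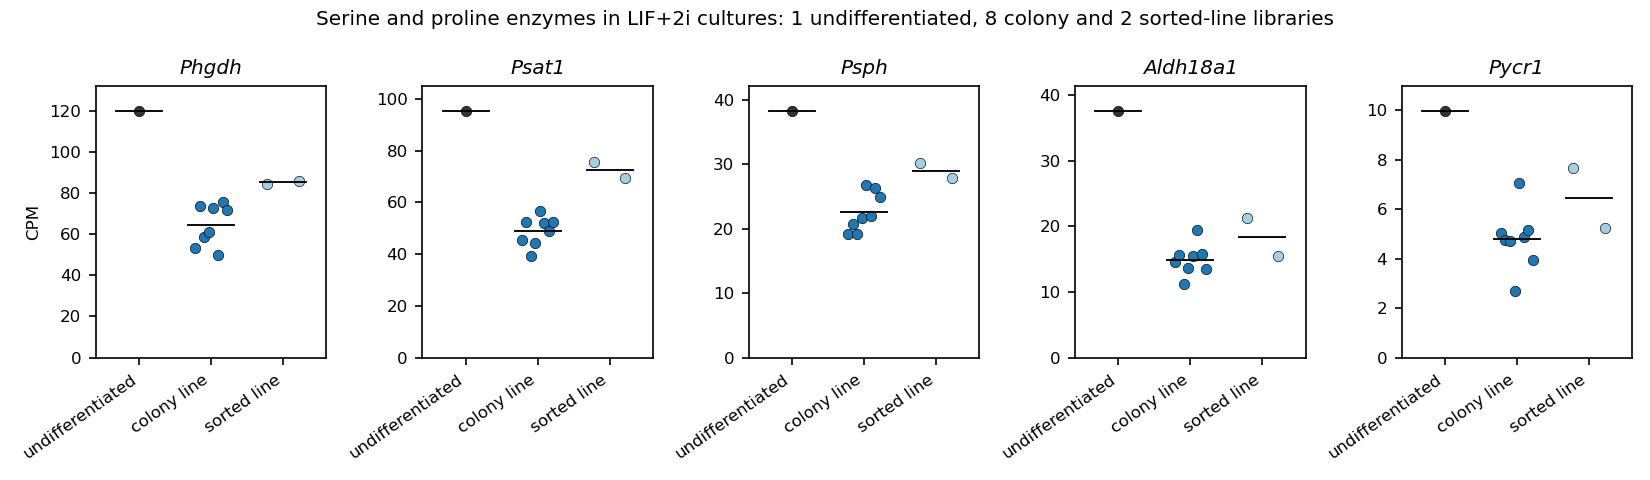
CPM (linear axis from 0) of the serine and proline enzymes in the libraries labelled LIF+2i: 1 undifferentiated, 8 colony lines and 2 sorted lines, each point a library and each line a group mean. For all 5 genes every line lies below the undifferentiated library, and Aldh18a1 is at 14.9 CPM on average in colony lines against 37.6.

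Levels can be compared between genes on the authors' RPKM, which divide by the gene's length. In undifferentiated cells the order of these levels was Tdh (558 RPKM), Bcat1 (425), Asns (312), Gcat (96.3), Psat1 (79), Phgdh (71.4), Gldc (50.1), Psph (30.4), Aldh18a1 (14.8) and Pycr1 (7.51). At day 2 Phgdh led at 135 RPKM, followed by Psat1 at 103, with Tdh at 75.8 as the member in place 6. At day 15 without AICAR Phgdh (56.4) and Psat1 (47.9) were again highest and Tdh was last at 4.64. In AICAR GFP-positive cells Tdh was first at 516 ± 134 RPKM (SD, n = 3), followed by Bcat1 at 145 ± 6.25 and Asns at 103 ± 12. Psat1 (52.9 ± 13.8) and Gcat (51.3 ± 1.23) did not differ beyond their spread there. Colony lines had Tdh at 599 ± 23.3, Bcat1 at 403 ± 12.6 and Asns at 271 ± 13.9 RPKM (SD, n = 8), and next in order Gldc (81.8 ± 19.6) and Gcat (76.9 ± 11.8) overlapped. Together the 10 genes took 0.244% of the reads in undifferentiated cells, 0.117% at day 2 and 0.0422% at day 15 without AICAR.

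The likeness of the profiles was described by Pearson's r of log2(CPM + 1) over the 9 group means, which share libraries, depth and 6 groups of 1 library. Among the 10 genes, Bcat1 and Asns were the most alike pair (r = 0.99), then Phgdh and Psat1 (0.84), and Aldh18a1 ran against Bcat1 (-0.87) and Asns (-0.84). Tdh and Gcat, which are consecutive in the threonine route, had r = 0.61, and Tdh and Phgdh -0.37. Over all genes with at least 10 CPM in a group mean, the profile nearest to Tdh was that of Zfp64 (r = 0.9946), followed by Hydin and Fastkd1. Bcat1 was nearest to Lap3 (0.99), a leucine aminopeptidase, and Asns to Gm6792 (0.9922), Magea4 (0.9891) and Bcat1 (0.9855). Gldc was nearest to Gm14139 (0.9924) and Phgdh to Alas1 (0.9694). Those of Psat1 (Mif, 0.927), Psph (1700013H16Rik, 0.956), Aldh18a1 (the joined entry of 1700101I11Rik and Gabarapl1, 0.9612) and Pycr1 (Igsf8, 0.9313) were less close, and that of Gcat was Eef1g (0.9956).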

How the data were processed

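Each of the 19 libraries came with 1 gene table. It holds the read counts per gene entry that the authors deposited, and their RPKM values, made from uniquely mapped reads with 3' untranslated regions left out, per the file headers. The submitters' processing notes list Trimmomatic 0.3.3, TopHat2 2.0.14, Bowtie2 2.2.5, CASAVA 1.8.2, bcl2fastq and mm9. The library kit keeps strand, and whether counting used it is not given in the sources used here. Counts were tested with edgeR 4.0.16 in R 4.3.3 (quasi-likelihood, TMM, filterByExpr, Benjamini-Hochberg adjusted p under 0.05 over all genes tested) on the libraries compared, and single libraries were compared by ratios with a prior count of 2. Alternatives were DESeq2 1.42.0, other scaling, no filter, 1 fit for all groups, 1 sequencing project and each replicate left out. Counts over lists under other settings were added after seeing the data. On simulated data, 4-fold changes were recovered for 41.6% of genes in AICAR GFP-positive against day-15 cells and 100% in colony lines against AICAR GFP-positive cells. For 2-fold changes the shares were 2.47% and 91.8%. Each simulation changed 200 genes at 1 common dispersion, far fewer genes than were called in these real comparisons. The shares therefore do not give the power of the real tests. Over 32 pairs of libraries of 1 group, chi-square per degree of freedom was 1.96 to 51.1, so no pair was counted as 1 library. AICAR GFP-positive replicates 1 and 2 were at 10.5 from each other, and at 51.1 and 47.7 from replicate 3. Colony lines 3, 6, 9 and 10 were at 1.96 to 6.34 from each other and lines 1, 4 and 5 at 2.9 to 4.09. Pairs between these sets were at 8.31 to 15. The tests took the 8 lines as independent. Members, lists and tests were chosen with earlier results of these data known. Named genes are the members, up to 4 per list by adjusted p or ratio, and up to 3 with the most alike profile. Promoters are from RefSeq (GRCm38.p6), for 9 of 10 members. Values of some genes of the lists are not reported here.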

Additional observations from a re-analysis of the deposited data

How the results depend on the processing

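Member counts for AICAR GFP-positive cells against day-15 cells, and for both kinds of line against them, stayed within 1.5 times under DESeq2, scaling, filter and joint-fit settings, and for the lines also within the first sequencing project, and Bcat1 and Asns were called there in each alternative run. Against GFP-negative cells 0 members became 3 with DESeq2 and 3 with all groups in 1 fit (0, 1204 and 3548 genes), and 0 to 4 with a replicate left out. Against double-negative day-2 cells 3 became 6 in the joint fit (801 and 4236 genes, 1976 with DESeq2) and 0 to 6 with a replicate left out. Against undifferentiated cells 4 became 0 to 6 with a replicate left out (689 genes, 1038 without filter, 2107 with DESeq2 and 4304 in the joint fit). Sorted lines had 6, which became 9 within the first project (4617 and 7868 genes) and 2 to 9 with a replicate left out (321 to 6514 genes). Colony lines against the undifferentiated library had 1, which became 4 with DESeq2, 2 without filter, 0 with library totals, 0 in the joint fit and 0 to 2 with a line left out. The causes were not tested. Counts of all genes are not given here for every setting with a replicate left out, and member counts without them have no background. Same-numbered sorted-line and AICAR GFP-positive libraries shared only a number (r of their deviations 0.04). A replicate block over numbers 1 and 2 called 9 members and 6804 genes, and the same 4 libraries without the block 9 and 6514. Some log2 fold changes near 0 changed sign. With a replicate left out, those against GFP-negative cells ran from -0.11 to 0.43 for Gldc, -0.06 to 0.35 for Phgdh, -0.14 to 0.12 for Psat1 and -0.02 to 0.14 for Asns. The same ranges were -0.35 to 0.19 for Gldc against double-negative day-2 cells, -0.29 to 0.11 for Aldh18a1 against undifferentiated cells, -0.1 to 0.44 for Gldc and -0.07 to 0.48 for Pycr1 in sorted lines. Between the lines Gcat reached 0.0 and 0.04. With library totals, Gldc was 0.05 against double-negative day-2 cells and -0.05 in sorted lines, and Aldh18a1 0.15 against undifferentiated cells. Within the first sequencing project the Gldc values were -0.22 (colony lines) and -0.34 (sorted lines), the latter with an adjusted p of 1.06e-05. In the 4 comparisons of AICAR GFP-positive cells with a single library, 1.03% to 3.77% of simulated 2-fold changes were recovered, against 70.7% for colony lines over the undifferentiated library. These shares hold for 200 changed genes at 1 common dispersion and do not give the power of the real tests.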
